A study of Mus musculus with 41 samples.

Results

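The data described here are the gene expression profiles of epithelial mammary tumors from mice that ate a high fat diet during puberty only, set beside those of mice that ate a low fat diet throughout. Tumors were chosen by their labels alone, as tumors of variable (epithelial) morphology with the diet label HFD to LFD switch or LFD. There were 7 HFD-LFD and 8 LFD tumors, 15 of the 29 epithelial tumors and of the 41 tumors of the whole series. All mice were wild-type BALB/c females that received, at 3 weeks of age, fragments of Trp53-null BALB/c mammary duct in inguinal fat pads cleared of their own epithelium, so the tumor epithelium lacked p53 while stroma, vessels and immune cells came from the host. The LFD supplied 10% and the HFD 60% of kcal from fat, both diets began at 3 weeks of age, and HFD-LFD mice were moved from HFD to LFD at 10 weeks. Tumors were taken at 1 cm. Those found before 52 weeks are early (3 HFD-LFD, 4 LFD) and the others late (4 HFD-LFD, 4 LFD). Fragments came from 4 donor mice, the labels do not tie tumors to donors, and the labels of 2 HFD-LFD tumors (replicates 5 and 6) and of 2 LFD tumors (replicates 1 and 2) carry the same leading number, so some tumors may share a donor or a host and p-values measure the spread between these tumors only.

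Each array measured the RNA of 1 tumor in Cy5 and a common reference, RNA pooled from 11 mouse cell lines, in Cy3, and every value below is the log2 ratio of tumor to reference or a difference between such ratios. The labels give Cy5 to the tumor whereas the study's methods give Cy5 to the reference, and the labels were followed; with the methods' dyes every sign below would turn. Slide was tied to diet. The 3 early HFD-LFD tumors lay on 1 slide, the 4 late HFD-LFD tumors on another, the 4 early LFD tumors on another and the 4 late LFD tumors on another, so slide and diet cannot be told apart in any comparison of these tumors. Of the 43020 spots, the percentage that rose well above background in the tumor's channel ran from 52.4% to 94.9% over HFD-LFD arrays (median 73.8%) and from 62.8% to 89.9% over LFD arrays (median 73.8%). Precision is limited by how many arrays there were. The standard deviation of log2 ratios within an array was 1.13 to 1.65 in HFD-LFD and 1.32 to 1.78 in LFD tumors. The luminal keratins Krt8 and Krt18, the basal keratins Krt5 and Krt14 and the epithelial adhesion protein Epcam were well above background in 15 of 15 tumors. Detection alone does not measure how epithelial a tumor was. The Epcam ratio was -1.62 in LFD replicate 3, against 2.40 to 3.02 in the other LFD tumors.

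Puberty is the time at which hormones and growth factors drive the mammary ducts to elongate through the fat pad, and the adipocytes, macrophages and vessels around the ducts take part in that growth. A diet restricted to this window acts on the tissue from which a tumor arises much later, and the comparison asks which transcripts still differed in the tumors long after the high fat diet had ended. The histone genes met below form a special class. The clustered, replication-dependent histone genes supply the proteins on which new DNA is packed during S phase, and lie in groups in the genome. Their short mRNAs end in a stem-loop in place of a poly(A) tail. Variant histones such as H2az1 and Macroh2a2 are encoded by ordinary single genes. The study amplified its RNA linearly, and how that step took up mRNAs without a poly(A) tail was not tested. The ratios of the clustered histone genes below carry that limit.

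Of 21385 genes tested, 261 differed between HFD-LFD and LFD tumors at an adjusted p under 0.10 (limma with Benjamini-Hochberg adjustment over all genes), which is 1.22% of those tested. Of these, 76 were higher (0.355%) and 185 lower (0.865%) in HFD-LFD tumors. That split moved with the processing, to 137 higher and 150 lower after normexp and loess, 65 and 97 after loess, 1047 and 1117 in the tumor channel alone, and 270 and 163 in the authors' table. Without HFD-LFD replicate 2 the calls numbered 65, and without LFD replicate 1 they numbered 553. The median difference of all genes was -0.06 on the log2 scale, and 43.2% of genes were above 0. Among higher genes whose spot rose above background in at least 1 tumor of each group, Rgs7, a regulator of G-protein signaling, and the monoamine transporter gene Slc18a2 had the largest differences, followed by the histone H4 genes H4c14, H4c4 and H4c12. Etnppl, named after its value was seen, was also called higher (adjusted p = 0.0121, limma), but its spot was well above background in 5 of 7 HFD-LFD and 0 of 8 LFD tumors, so no size is given. The homeobox genes Rhox4a and Rhox4g, the kinase gene Lmtk2 and the secreted-protein gene Tafa3 were among the largest of the lower genes. In 32 genes every HFD-LFD tumor lay above every LFD tumor (0.15% of genes tested) and in 60 every one lay below (0.281%). Of the 261 called genes 52, or 19.9%, were without overlap between the groups.

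**Figure D1:**
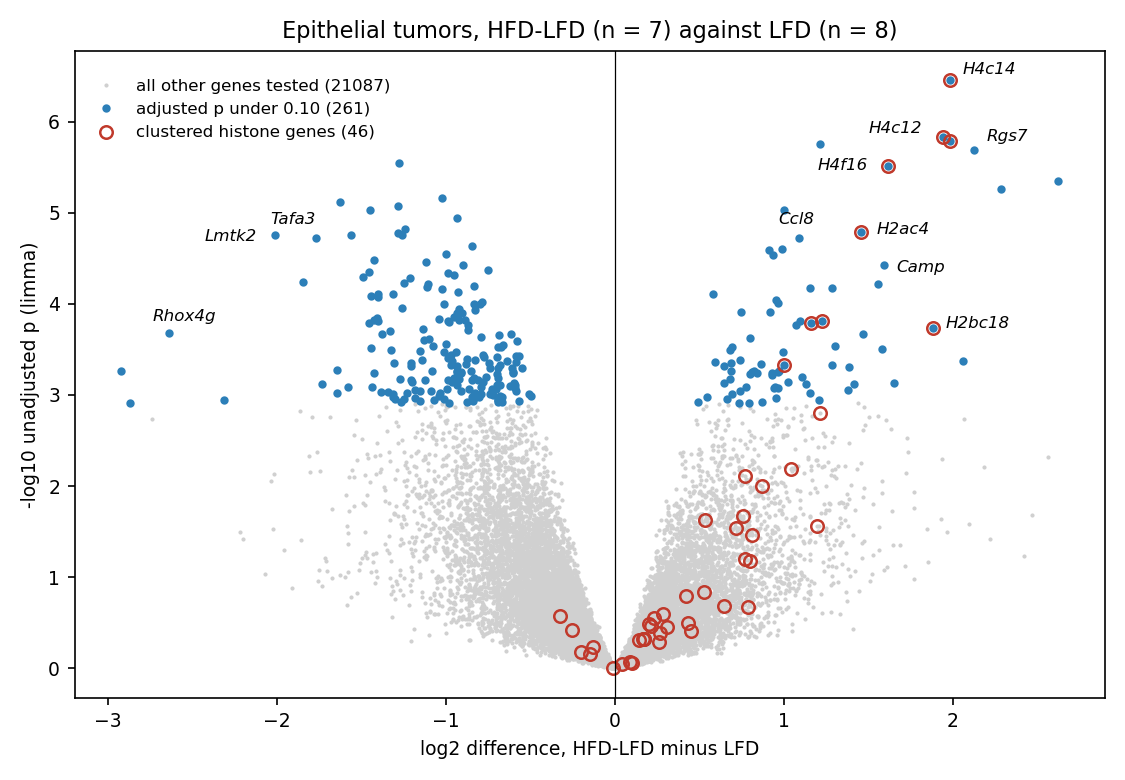
Difference between HFD-LFD and LFD tumors (x axis, log2) against the unadjusted p of limma (y axis, -log10) for the 21385 genes tested, with the 261 called genes in color and the 46 tested clustered histone genes circled. The circled genes lie mostly right of 0, with 40 of 46 above it, and Rgs7 and the H4 genes H4c14, H4c4 and H4c12 stand highest on the right.

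Because the tumors are mixtures, a transcript that is lower in a tumor can mean fewer cells of a type or less RNA per cell, and these cannot be told apart. All 261 called genes differed in the same direction in early and in late tumors, as against 56.3% of all genes, but a gene called on the mean of both onsets is likely to have one sign in both. In 216 of the called genes (82.8%) the mean ratio was closer to 0 in HFD-LFD than in LFD tumors, as against 62.3% of all genes, and its part in the result was not tested beyond scaling. With every array scaled to the same standard deviation of ratios, 231 genes were called, 183 of them among the 261. The reference channel differed more than the tumor channel in 38.3% of called genes and in 38.5% of all genes, so those called genes are named below with both channels where it matters. With slide as a random block 8 genes were called (7 higher, 1 lower), and with the tumors of each slide averaged 0 were called and 785 had an unadjusted p under 0.05.

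Transcripts of 6 of the 9 tested genes for histone H4, the core histone whose acetylated tail marks open chromatin, were higher in the HFD-LFD tumors. H4c14 had log2 ratios of 0.10, 0.39 and 0.63 in the early HFD-LFD tumors, and of -0.78, -0.13, 0.33 and 1.27 in the late ones. In LFD tumors H4c14 ran from -2.52 through a median of -1.69 to -1.18. Every HFD-LFD tumor was thus above every LFD tumor, and the difference was 1.98 (SE 0.30, adjusted p = 0.00751, limma), a ratio 3.95 times as high. In early tumors H4c14 differed by 1.92 and in late tumors by 2.07, each set of tumors on slides of its own, and neither passed on its own (adjusted p = 0.135 and 0.12, limma).

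H4c4, another copy of the same protein, had HFD-LFD ratios from -0.55 (median 0.19) to 1.13 and LFD ratios from -2.79 (median -1.62) to -1.06. The difference was 1.98 (SE 0.33, adjusted p = 0.00872, limma), again without overlap. H4c12 ran from -0.81 (median 0.27) to 1.25 in HFD-LFD and from -2.54 (median -1.69) to -1.17 in LFD tumors, a difference of 1.94 (SE 0.32). H4f16, an H4 gene on chromosome 6 away from the large clusters, ran from -0.32 (median 0.30) to 1.1 against -1.76 (median -1.28) to -0.75, a difference of 1.61 (SE 0.28). All 4 genes had no overlap. HFD-LFD replicate 3 was the lowest and replicate 2 the highest of the HFD-LFD tumors in H4c14 and H4c4, and both were late tumors of 1 slide. On their arrays 92.6% and 52.4% of spots rose well above background for the tumor. Without HFD-LFD replicates 3, 4 and 7 and LFD replicate 1, the arrays with over 80% of such spots, 10 clustered histone genes were called in place of 9.

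The difference in the H4 genes lay in the tumor channel. H4c14, H4c4 and H4c12 differed by 1.93, 2.01 and 1.97 in the tumor channel and by -0.11, -0.02 and -0.03 in the reference channel. With a random block for slide H4c14, H4c4, H4c12 (adjusted p = 0.0887 each, limma) and H4f16 (adjusted p = 0.0936) were called. With the tumors of each slide averaged none was. The random block gave every gene the same correlation within a slide (0.11). It cannot separate slide from diet, because each slide of these tumors held 1 regimen. In each of the 15 fits that left out 1 tumor, H4c14, H4c4, H4c12, H4f16 and H2ac4 were called. A 2nd probe of H4c12 gave 1.41 and a 2nd probe of H4c14 gave 0.73, and the latter was not called (adjusted p = 0.245 over probes, limma).

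**Figure D2:**
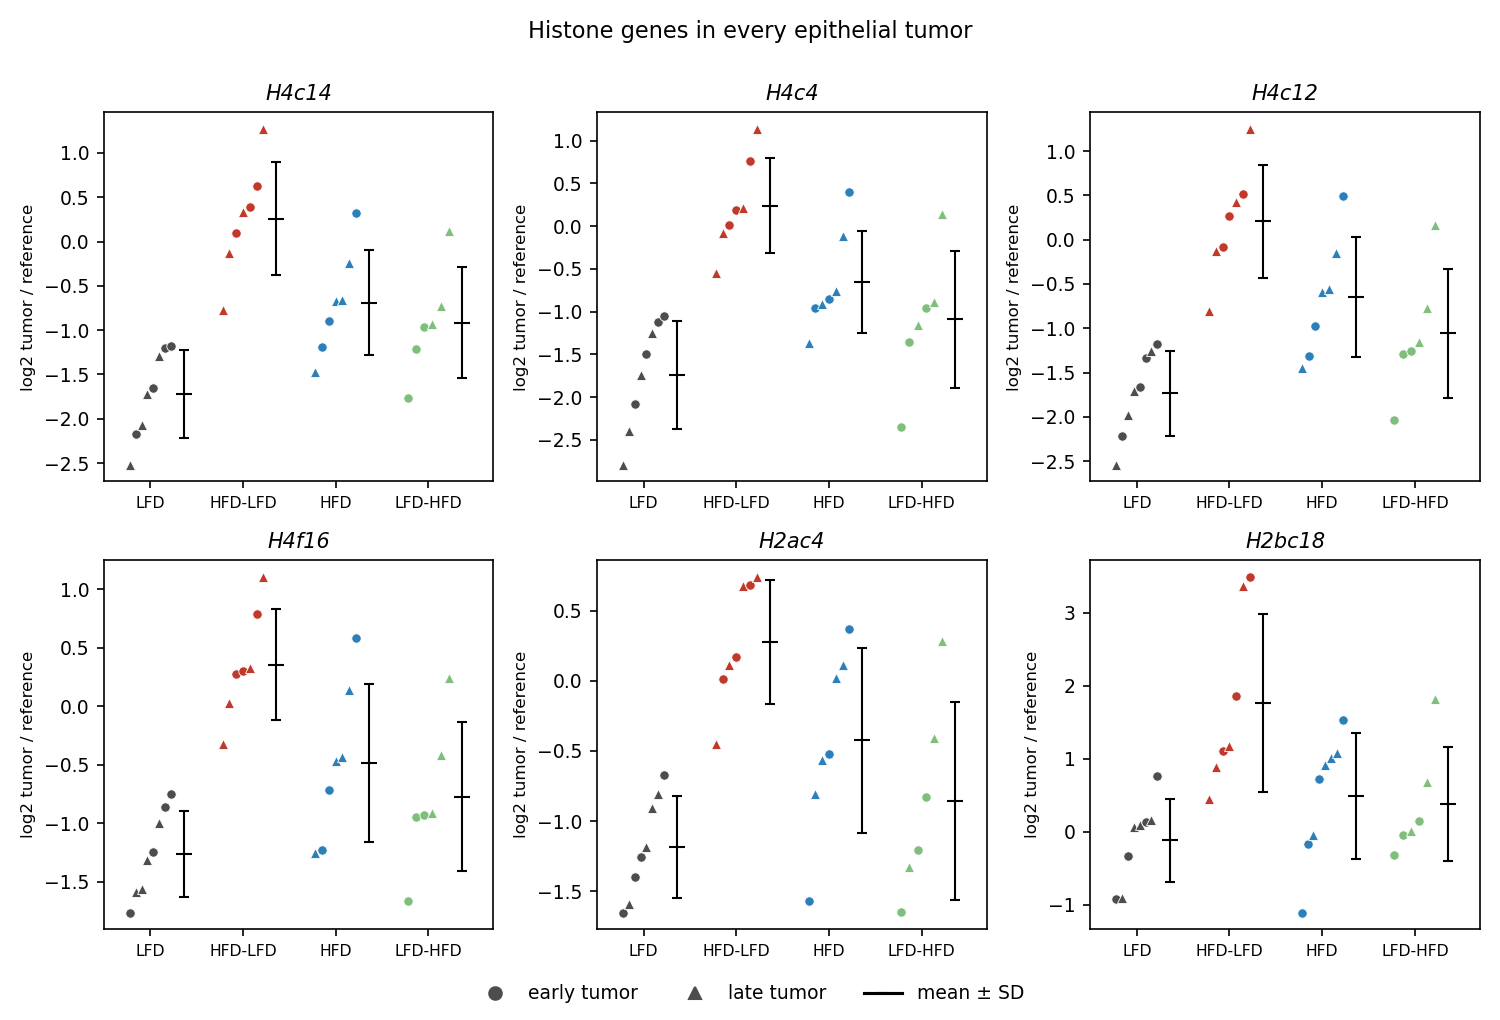
Log2 ratio of tumor to reference (y axis) in each tumor of the 4 regimens (x axis) for H4c14, H4c4, H4c12, H4f16, H2ac4 and H2bc18, with early tumors as circles, late tumors as triangles, and bars for the mean ± SD. The HFD-LFD tumors lie above all LFD tumors in 5 of the 6 genes, and the HFD and LFD-HFD tumors lie between them in the mean.

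All genes named as starting with Hist1 to Hist4 on the array were described as 1 group, a choice made after their values were seen. The array held 49 of them and 46 were tested. Of those, 9 were higher (0.355% of all genes were called higher), none lower, and 40 were above 0, with a median difference of 0.49 against -0.06 over all genes. By family, 6 of 9 H4 genes were called higher with a median of 1.16, 1 of 13 H2A genes (median 0.17), 1 of 11 H2B genes (median 0.43), 1 of 8 H3 genes (median 0.59) and 0 of 5 H1 linker histone genes (median 0.77). The remaining called H4 genes were H4c11 (1.16, adjusted p = 0.044, limma) and H4c3 (1.0, adjusted p = 0.0741). H4c9, H4c17 and H4c8 were the 3 H4 genes not called, with differences of 0.80, -0.01 and -0.13, so the family did not move as one. Of the other probes of H4c9, 1 gave 1.18 (adjusted p = 0.0972 over probes, limma), past the threshold, and 1 gave 0.35. In the fits that left out 1 tumor, H4c11 was called in 14 of 15 and H4c3 in 8 of 15.

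H2bc18, a core histone H2B gene, was higher by 1.88 (SE 0.44, adjusted p = 0.048, limma), from 0.45 (median 1.17) to 3.49 in HFD-LFD and from -0.92 (median 0.08) to 0.76 in LFD tumors, so the groups overlapped. H2ac4, a core histone H2A gene, was higher by 1.46 (SE 0.28, adjusted p = 0.0178), from -0.45 (median 0.17) to 0.74 against -1.65 (median -1.22) to -0.67, with no overlap. H3c13, a core histone H3 gene, was higher by 1.23 (adjusted p = 0.0436). The largest H1 difference was that of H1f4, 1.22 (adjusted p = 0.109), which did not pass.

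The median difference of the clustered genes was 0.85 in early and 0.44 in late tumors. Averaged over the clustered genes, the mean log2 ratio per tumor ran from -0.48 to 0.67 in HFD-LFD tumors and from -0.74 to -0.24 in LFD tumors, with 6 HFD-LFD tumors above the highest LFD tumor and replicate 3 below it. Of 9 variant histone genes, which are made outside S phase as well, 1 was called higher. This was Macroh2a2, a histone of silent chromatin, at 0.91 (adjusted p = 0.021, limma), and the median of the variant genes was 0.06. H2az1 differed by 0.51 (adjusted p = 0.169, limma) and was not called. A 2nd probe of H2az1 gave 0.63 (adjusted p = 0.0651 over probes, limma), past the threshold.

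**Figure D3:**
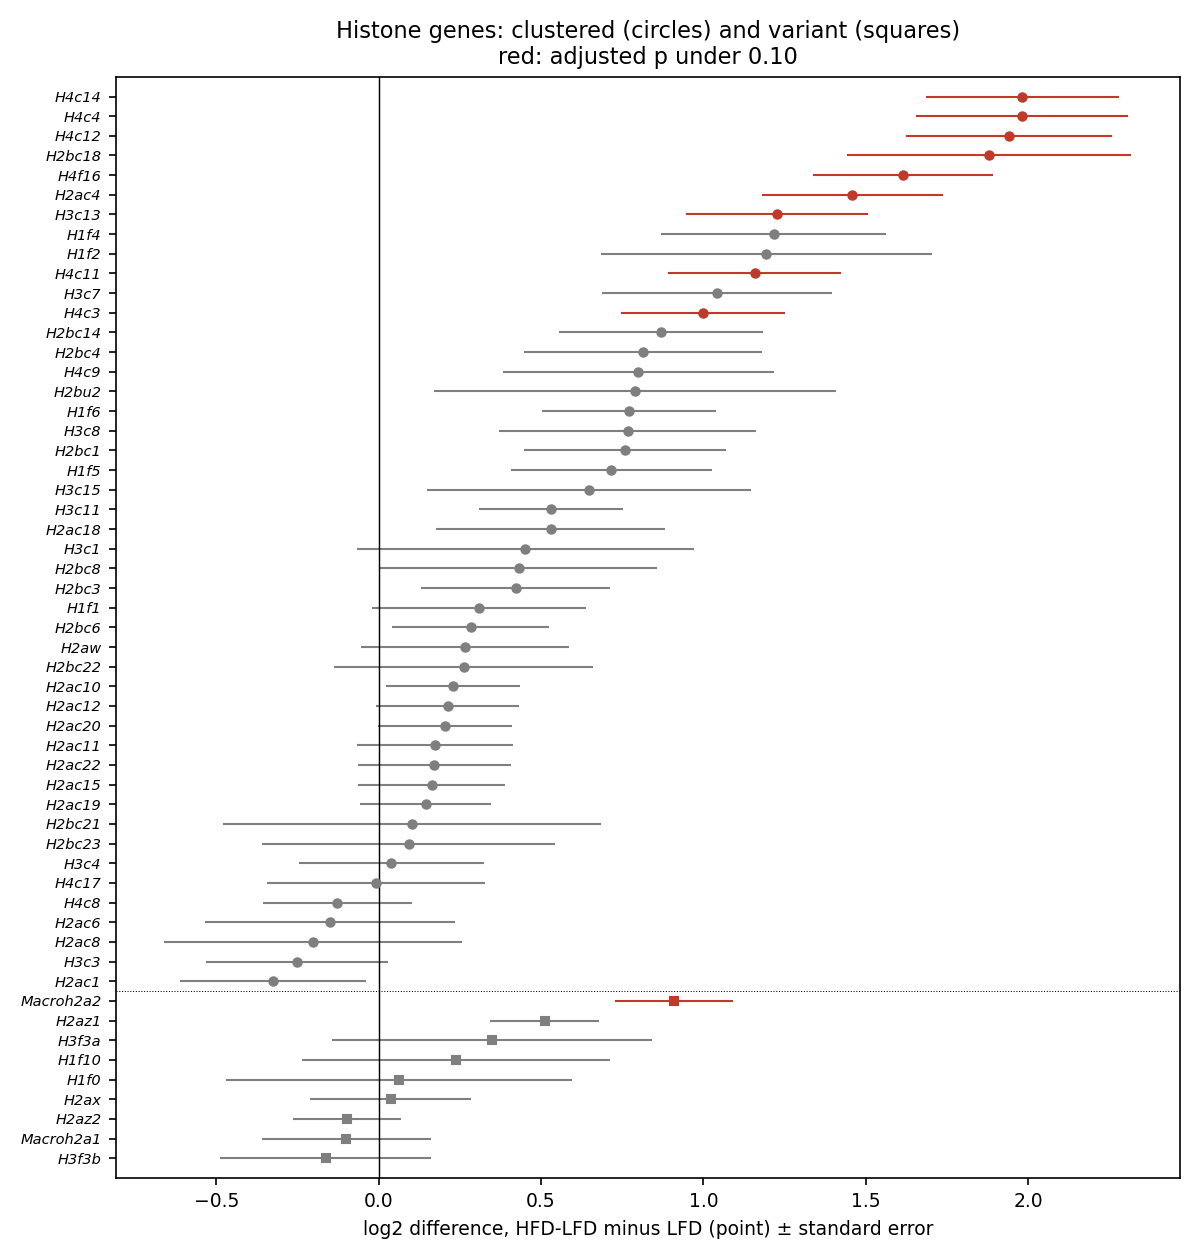
Difference between HFD-LFD and LFD tumors (log2, points, with bars for the SE of limma) for the 46 clustered and 9 variant histone genes. Each class is in order of difference, with called genes in red. The H4 genes hold 6 of the 9 called clustered genes and reach 1.98, while the H2A genes other than H2ac4 lie at 0.53 or below.

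The probes of near-identical genes can take up each other's transcripts. Among the 15 pairs of probes of called H4 genes, 1 pair (H4c4 and H4c11) was at least 90% identical, at 95.0% over 40 bases, and no pair shared a run of more than 20 bases. Among the 78 pairs of H2A probes 13 were at least 90% identical. The H4c3 probe was 86.5% identical to that of H4c4 over 52 bases and 85.4% to that of H4c11 over 48 bases. Probes of H4c4, H4c11 and H4c3 thus read similar stretches. The remaining pairs of called H4 probes were at most 47.7% identical, although H4c14 and H4c12 had almost the same ranges in both groups. The genes encode the same protein and share much coding sequence, so each H4 value is uncertain as the measure of 1 gene. The called H4 genes may not be separate readings.

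The sequences before the starts of the called clustered histone genes are shown because these genes differed together and their promoters have known elements. The 120 bases before each gene's start come from RefSeq on GRCm38.p6, 5′ to 3′ on the gene's strand, with capitals for TATAAA (the TATA box), CCAAT or its complement ATTGG (the CCAAT box), and GGTCCG (the core of the H4 element called site II). They were printed for 8 of the 9 called genes, and H4c14 is the remaining one. H4c4 lies at chr13:23581448-23581567 on the plus strand, H4c12 at chr13:21750554-21750673 on the minus strand, H4c11 at chr13:21734914-21735033 on the plus strand, H4c3 at chr13:23698459-23698578 on the minus strand, H4f16 at chr6:136804432-136804551 on the minus strand, H2ac4 at chr13:23750968-23751087 on the plus strand, H2bc18 at chr3:96269580-96269699 on the plus strand and H3c13 at chr3:96268534-96268653 on the plus strand.
H4c4: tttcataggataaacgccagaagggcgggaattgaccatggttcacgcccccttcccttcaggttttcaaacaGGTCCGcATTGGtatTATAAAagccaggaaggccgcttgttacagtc
H4c12: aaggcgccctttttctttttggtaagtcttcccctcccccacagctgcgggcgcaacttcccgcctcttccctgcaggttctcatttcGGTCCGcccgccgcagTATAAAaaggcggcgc
H4c11: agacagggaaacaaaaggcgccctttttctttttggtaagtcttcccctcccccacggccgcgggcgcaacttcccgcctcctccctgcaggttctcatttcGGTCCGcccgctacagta
H4c3: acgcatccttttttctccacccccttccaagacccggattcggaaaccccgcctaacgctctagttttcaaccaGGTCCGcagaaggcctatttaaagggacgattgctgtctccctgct
H4f16: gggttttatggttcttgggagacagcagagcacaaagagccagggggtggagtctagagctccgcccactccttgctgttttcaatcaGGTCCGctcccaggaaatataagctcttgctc
H2ac4: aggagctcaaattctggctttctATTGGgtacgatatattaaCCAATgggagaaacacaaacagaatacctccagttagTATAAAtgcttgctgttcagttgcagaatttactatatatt
H2bc18: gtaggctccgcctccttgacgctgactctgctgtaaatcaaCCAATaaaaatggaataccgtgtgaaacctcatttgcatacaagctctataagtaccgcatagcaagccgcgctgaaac
H3c13: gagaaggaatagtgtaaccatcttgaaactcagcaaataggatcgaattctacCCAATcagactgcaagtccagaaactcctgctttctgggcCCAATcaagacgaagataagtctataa

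All 5 H4 promoters printed hold GGTCCG and the 3 others do not. Searched in the 250 bases before the start and on both strands, GGTCCG stood in 7 of 8 clustered H4 promoters with a sequence (87.5%), in 1 of 5 H3 promoters, in 0 of 3 H1, 0 of 13 H2A and 0 of 9 H2B promoters, and in 6.82% of the 27025 promoters of all genes. CCAAT stood in 13 of 13 H2A and 9 of 9 H2B promoters but in 2 of 8 H4 promoters, against 34.5% of all promoters, and TATAAA in 20 of 41 clustered promoters (48.8%) against 13%. These 3 motifs do not overlap each other in letters. A match is a description of the sequence only. GGTCCG was more frequent in H4 promoters than in those of the other families but did not separate them fully, and these family counts took no account of calls. Hinfp encodes the zinc finger protein that binds site II, and was chosen for its role after its value was seen. Its ratio ran from 0.50 (median 1.03) to 1.42 in HFD-LFD and from 1.29 (median 1.59) to 2.20 in LFD tumors, a difference of -0.59 (SE 0.16, adjusted p = 0.0919, limma). Slbp, whose protein binds the stem-loop of histone mRNAs, differed by -0.37 (adjusted p = 0.721). The non-coding RNA Rmrp, the RNA part of the ribonuclease RNase MRP, was higher by 0.99 (adjusted p = 0.021), also named after its value was seen.

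Markers of dividing cells were not called beside the histone genes. Of 30 tested genes of cell division none was called (3 at an unadjusted p under 0.05, limma), and their median difference was 0.05. Over all genes tested 1.22% were called and 13.4% had an unadjusted p under 0.05, so a list of this size would hold few calls in any case. Mki67, the Ki-67 antigen, differed by 0.13 (SE 0.21), the replication clamp gene Pcna by 0.31 (SE 0.18), the topoisomerase gene Top2a by 0.14 (SE 0.29) and the cyclin gene Ccnb1 by 0.08 (SE 0.31). E2f1, which switches on S-phase genes, differed by 0.06 (SE 0.24). Averaged over the list, the mean log2 ratio of the tumors ran from -0.04 to 1.32 in HFD-LFD and from 0.10 to 1.19 in LFD tumors, so the groups overlapped.

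Other genes rose with the histone genes. Rgs7, which speeds the shut-off of G-protein signals and is known from neurons, ran from -1.58 (median -0.68) to -0.09 in HFD-LFD and from -3.67 (median -2.88) to -1.98 in LFD tumors, without overlap, a difference of 2.12 (SE 0.36, adjusted p = 0.00872, limma). Its spot rose well above background in 7 of 7 HFD-LFD and 6 of 8 LFD tumors, and with the random block for slide it was called (adjusted p = 0.0887, limma). Slc18a2, the vesicular monoamine transporter, was higher by 2.06 (SE 0.52), but its spot was well above background in 4 of 8 LFD tumors (1 of the 4 early ones) and 6 of 7 HFD-LFD tumors, so this size rests in part on undetected spots. Spry2, a feedback inhibitor of growth factor receptors, was higher by 1.56 (SE 0.33), from -1.98 (median -0.99) to 0.57 against -3.91 (median -2.35) to -1.43, with overlap. Camp, a neutrophil granule peptide that is far below the reference in all tumors, ran from -6.66 to -4.82 against -7.50 to -6.32, a difference of 1.59 (SE 0.32). Rpgrip1, a protein of the photoreceptor cilium, was higher by 1.65, and Bcl9, a Wnt co-activator, by 1.58, although a 2nd Bcl9 probe gave 0.38.

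The genes of largest lower ratio were led by homeobox genes of the Rhox cluster on the X chromosome, which are best known from placenta and gonads. Rhox4g ran from 0.37 (median 1.08) to 2.25 in HFD-LFD and from 2.37 (median 3.53) to 5.24 in LFD tumors, without overlap, a difference of -2.63 (SE 0.62, adjusted p = 0.0518, limma). Rhox4a differed by -2.92 (SE 0.75, adjusted p = 0.0764), but the probes of Rhox4a and Rhox4g share a run of 53 bases and are 96.7% identical, so they count as 1 measurement of the Rhox4 family. Dmrta2, a transcription factor gene, differed by -2.87 (adjusted p = 0.0996), and its spot rose well above background in 3 of 7 HFD-LFD and 8 of 8 LFD tumors.

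Lmtk2, a membrane kinase of vesicle traffic, ran from -0.98 (median 0.85) to 2.10 in HFD-LFD and from 1.65 (median 2.49) to 4.45 in LFD tumors, a difference of -2.01 (SE 0.39, adjusted p = 0.0178, limma). Tafa3, a secreted small protein, ran from -2.29 (median -0.84) to 0.11 against 0.23 (median 0.78) to 1.27, without overlap, a difference of -1.77 (SE 0.34, adjusted p = 0.0178). The Tafa3 spot was well above background in 3 of 7 HFD-LFD tumors (0 of the 3 early ones) and 8 of 8 LFD tumors, so its lowest values and the size of its difference rest on undetected spots. Both genes were called in each of the 15 fits that left out 1 tumor. Lif, a cytokine of the interleukin 6 family that drives STAT3, differed by -1.58 (SE 0.42, adjusted p = 0.0889), from 0.70 (median 1.97) to 2.45 against 1.79 (median 3.54) to 5.04. In early tumors Lif differed by -1.93 and in late tumors by -1.23. Part of the ratio difference of all 3 genes lay in the reference channel. The tumor and reference channels differed by -1.12 and 0.84 for Lmtk2, by -1.08 and 0.63 for Tafa3 and by -0.81 and 0.72 for Lif.

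Many calls depended on single tumors. Of the 435 calls that the 29 named called genes could make in the 15 fits that left out 1 tumor, 146 were lost. Dmrta2, Lif and Serpinb6d were called in 3 of the 15 fits, Clock, Pinc and H2-Eb1 in 4, Rhox4a and AU018091 in 6, Slc18a2, Rpgrip1, Lrp6 and Tpcn2 in 7, Nepro in 8, Bcl9 in 10, Rhox4g in 11, H2bc18 in 13 and Aff4 in 14. Rgs7, Camp, Spry2 and Ccl8 were called in 15, as were Lmtk2 and Tafa3.

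Several lower genes differed more in the reference channel than in the tumor channel. Aff4, a scaffold of the elongation complex of RNA polymerase II, had a ratio difference of -1.40 while its tumor channel differed by 0.27 and its reference channel by 1.62. Pinc, a mammary non-coding RNA of pregnancy, differed by -2.31, with -0.21 in the tumor channel and 2.05 in the reference channel. Tpcn2, an endolysosomal channel, differed by -1.65 with channels of -0.28 and 1.31, and Serpinb6d, a protease inhibitor, by -1.44 with -0.28 and 1.1, its spot well above background in 3 of 7 HFD-LFD and 7 of 8 LFD tumors. The transcript AU018091 (-1.73) and the nucleolar gene Nepro (-1.44) differed by -1.22 and -0.92 in the tumor channel.

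**Figure D4:**
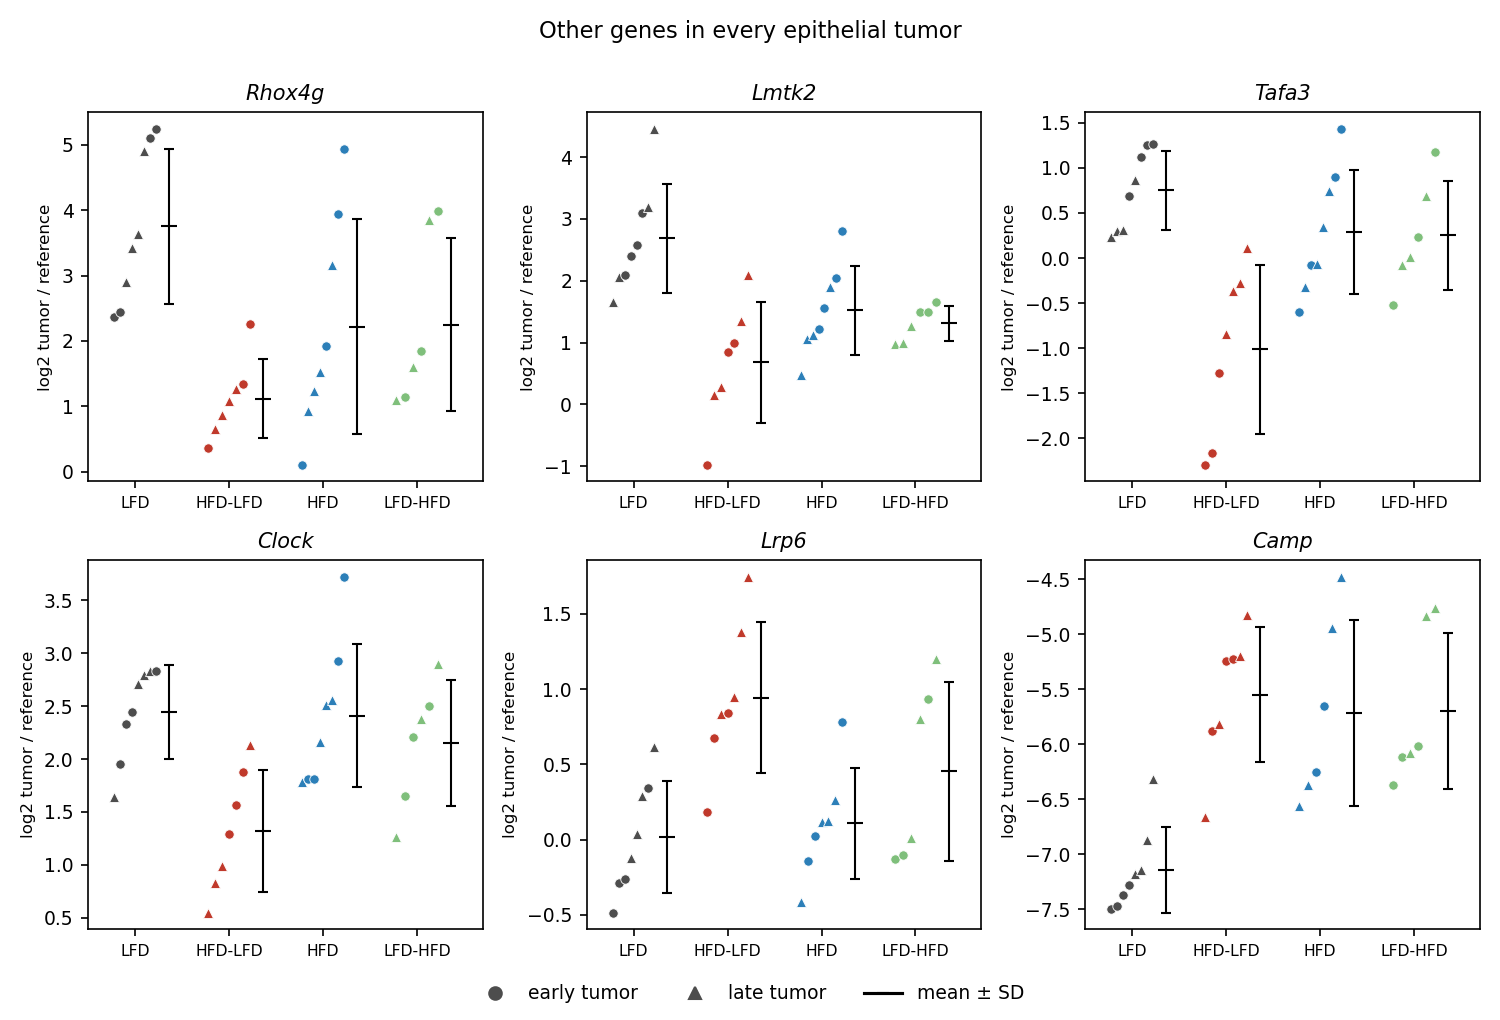
Log2 ratio of tumor to reference (y axis) in each tumor of the 4 regimens (x axis) for Rhox4g, Lmtk2, Tafa3, Clock, Lrp6 and Camp, with early tumors as circles, late tumors as triangles, and bars for the mean ± SD. Rhox4g and Tafa3 separate HFD-LFD from LFD tumors, with the Tafa3 spot undetected in 4 of the 7 HFD-LFD tumors, while Camp is far below the reference in each regimen.

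The 2 onsets gave few calls on their own. In early tumors 24 genes passed (0.112% of those tested), 16 higher and 8 lower, in late tumors 1 (0.00468%), and the difference between onsets was called for 1 gene (0.00468%). In early tumors Tafa3 was called lower (adjusted p = 0.00422, limma) and Slc18a2 higher (adjusted p = 0.0359), but the Tafa3 spot was well above background in 0 of 3 early HFD-LFD tumors and the Slc18a2 spot in 1 of 4 early LFD tumors, so no size is given. Ppara, the nuclear receptor that switches on fatty acid oxidation, was higher by 1.98 in early tumors (adjusted p = 0.0223) with ratios of -3.34, -3.05 and -3.01 against -5.38 to -4.65, and differed by 0.09 in late tumors. It was named after its value was seen, and the difference between onsets was not called for it. The gene called late, a transcript without a name in the RefSeq table, differed by -2.27 (adjusted p = 0.0587).

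Prkaca, the catalytic subunit of protein kinase A, was the gene called for a difference between onsets. Its early HFD-LFD ratios were -0.61, -0.56 and -0.30 against -2.08 to -1.65 in early LFD tumors. In late tumors they were -2.01 to -1.53 against -1.35 to -0.86, the opposite order, again without overlap. The differences were 1.28 (adjusted p = 0.0114, limma) early and -0.62 late, 1.90 apart (adjusted p = 0.0115 for the difference). Each of these 4 groups lay on a slide of its own.

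The regimens of lifelong HFD and of HFD after puberty share the LFD tumors as controls in their own comparisons, so values are given side by side. HFD against LFD tumors called 0 genes (2000 at an unadjusted p under 0.05, smallest adjusted p 0.328, limma) and LFD-HFD against LFD tumors called 0 (1392, smallest adjusted p 0.284). H4c14 differed from LFD by 1.98 in HFD-LFD, 1.04 in HFD and 0.81 in LFD-HFD tumors. The median over H4 genes was 1.16 in HFD-LFD, 0.51 in HFD and 0.42 in LFD-HFD. Rgs7 differed by 2.12, 1.02 and 0.79, Rhox4g by -2.63, -1.53 and -1.50, Lmtk2 by -2.01, -1.17 and -1.38, Camp by 1.59, 1.43 and 1.44, and Tafa3 by -1.77, -0.46 and -0.50. Set directly against HFD tumors, HFD-LFD tumors had 3 genes higher and 3 lower, and against LFD-HFD tumors 0 (1070 at an unadjusted p under 0.05).

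Among 46 lists of pathway and cell type genes, 5 members were called higher, which were Camp, H2-Eb1, Ccl8, Spry2 and Lrp6, and Clock was among those called lower. No list held more than 1 called member. Over all genes tested 0.355% were called higher and 0.865% lower, and 13.4% had an unadjusted p under 0.05 (limma). Whether list members were called more often than other genes was not tested. Clock, a transcription factor of the circadian clock, differed by -1.12 (SE 0.29, adjusted p = 0.083, limma), from 0.55 (median 1.29) to 2.14 against 1.64 (median 2.57) to 2.84. It was the 1 called gene of 16 in the clock list, whose median was 0.19. Lrp6, a Wnt co-receptor, was higher by 0.93 (adjusted p = 0.0782), the 1 called gene of 23 in the Wnt list, while its 2nd probe gave 0.56 and was not called (adjusted p = 0.422 over probes, limma).

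Of the immune lists, the chemokine gene Ccl8 was the 1 called of 15 inflammatory ligands, higher by 1.09 (SE 0.21, adjusted p = 0.0178, limma), from 6.25 (median 6.59) to 8.11 against 5.35 (median 5.61) to 6.28. Its tumor channel differed by 0.11 and its reference channel by -1.03. The list as a whole had a median of -0.54 with 3 of 15 members above 0, Il1b (interleukin 1 beta) at -0.99 and Tslp at -1.04, neither called. MHC class II genes were above 0 in 8 of 8 with a median of 0.49, and H2-Eb1, a chain of the class II molecule, was called at 0.79 (adjusted p = 0.0996), with -0.21 in the tumor channel and -1.06 in the reference channel. H2-Ab1, the member of largest difference (0.84, not called), had -0.20 in the tumor channel and -1.09 in the reference channel. In both genes the higher ratio thus went with a lower reference signal and not with a higher tumor signal. The H2-Eb1 call held in 3 of 19 other settings and in 4 of the 15 fits that left out 1 tumor. Interferon-induced genes were above 0 in 6 of 30, median -0.29, with none called and 1 at an unadjusted p under 0.05 (limma). The macrophage markers Adgre1 (-0.20), Csf1r (0.18) and Cd68 (0.39) and the M2 markers Arg1 (-0.57), Mrc1 (0.24) and Retnla (0.38) were not called. Other probes gave 0.74 (adjusted p = 0.288 over probes, limma) and 0.05 for Csf1r, 0.08 for Cd68 and -0.08 for Adgre1. Macrophage genes as a list were above 0 in 15 of 19, with a median of 0.20, none called and 5 at an unadjusted p under 0.05 (limma), and M2 genes in 8 of 13, with a median of 0.24 (-0.38 in early and 0.52 in late tumors) and 2 at an unadjusted p under 0.05.

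Adipocyte genes had the highest median of the lists, 0.67 with 14 of 16 members above 0, but none was called and 4 had an unadjusted p under 0.05. Slc2a4, the insulin-responsive glucose transporter, differed by 1.25, Lpl, the lipase that frees fatty acids from lipoproteins, by 1.17, Fabp4, a fatty acid carrier, by 1.01, and Lipe, hormone-sensitive lipase, by 1.01 (adjusted p = 0.102). Lep, the gene of leptin, differed by -0.45. The mean ratio over the list ran from -3.25 to -0.75 in HFD-LFD and from -3.30 to -2.14 in LFD tumors, so the groups overlapped with a wider range in HFD-LFD. The median was 0.46 in early and 0.85 in late tumors, and without HFD-LFD replicate 6 and LFD replicate 2 it was 0.35. Milk protein genes had a median of -0.59, with Lalba, a subunit of lactose synthase, at -1.36 and Xdh at -1.12, none called, and medians of -1.32 early and 0.22 late.

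**Figure D5:**
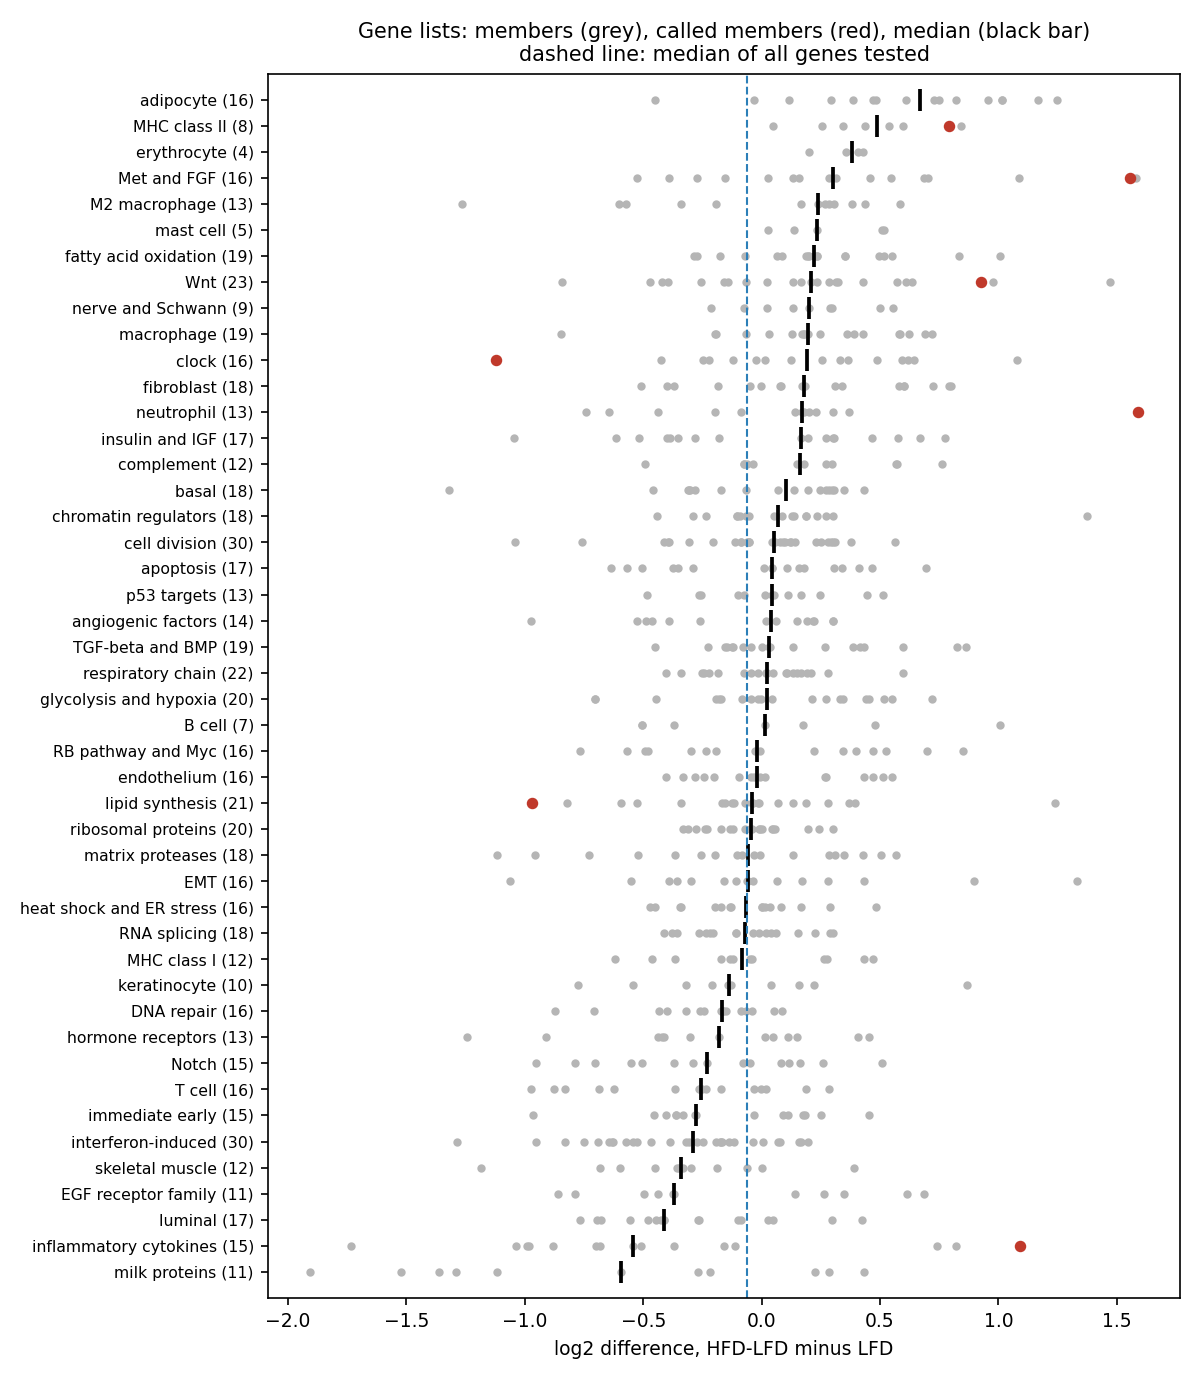
Difference between HFD-LFD and LFD tumors (log2, x axis) for the tested members of 46 gene lists (rows), with a dot for each gene (red where called), a black bar for each list's median and a dashed line at the median of all genes, -0.06. The adipocyte and MHC class II medians lie farthest right at 0.67 and 0.49, and the milk protein and inflammatory cytokine medians farthest left at -0.59 and -0.54.

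Genes of features that the study also examined in tissue did not pass the test. The survival gene Bcl2 differed by 0.34 (SE 0.24), and Bax, which promotes cell death, by -0.50 (SE 0.17, adjusted p = 0.189, limma). The endothelial genes Pecam1 (0.47), Cdh5 (0.55) and Kdr (0.51, adjusted p = 0.186) were above 0 and not called, a 2nd Kdr probe gave -0.18, and the endothelial list had a median of -0.02 over 16 genes. The angiogenic ligands Vegfa (0.30), Pgf (0.22) and Angpt2 (0.06) were not called, and neither were the estrogen receptor gene Esr1 (-0.30, SE 0.82) or the prolactin receptor gene Prlr (-1.24, SE 0.73, adjusted p = 0.481). Trp53 itself, deleted in the transplanted epithelium, ran from -1.27 to 1.23 in HFD-LFD and from -2.25 to 1.0 in LFD tumors, with a difference of 0.01 (SE 0.50). Whether its probe lies in the deleted part is not known and the host stroma is wild type, so it checks nothing, and the p53 targets Cdkn1a (0.11) and Mdm2 (-0.07) were not called either. A miss of the threshold in these genes does not show that the regimens were alike, as the standard errors leave room for differences.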

How the data were processed

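RNA of 1 tumor (Cy5, per the labels) and reference RNA (Cy3) were hybridised to each 2-color Agilent array. The scanner files, as deposited by the authors, give spot intensities that Agilent Feature Extraction (8.5.1.1 per the labels, 11.0.1.1 per the file headers) had background-subtracted and dye-normalized. A log10 ratio per spot, deposited with them, was read only to check direction. The authors also deposited log2 ratios that they had filtered, lowess normalized and imputed from 10 nearest neighbors. Here 26 of the 29 columns matched the scanner values of their own tumor best, 3 of HFD tumors matched another's, and the table served as an alternative.

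Log2 of the processed red over green signal was fitted with limma 3.58.1 in R 4.3.3 (lmFit, eBayes, Benjamini-Hochberg, adjusted p under 0.10) to the 29 epithelial tumors, in place of the methods' SAM. Outlier spots were missing. The filter kept 27938 of 39429 probes, those whose signal exceeded 10 for tumor and reference alike on 80% or more of the arrays, and the brightest probe represented a gene. Names came from the GRCm38.p6 RefSeq gene table, and 8054 probes kept the file's name. On simulated data for this comparison over 21385 genes, the fit recovered 87.4% of genes changed by 2 and 41.4% of those changed by 1 on the log2 scale, with 11.5% and 10.8% false calls. The simulated tumors were independent of each other and had no slide effect. These rates therefore cannot be carried over to the calls reported here, where slide was tied to diet.

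Named are the 12 genes of largest difference called in each direction with a symbol and a detected probe in each group, up to 4 called members per list, and index genes of lists on features studied in tissue. The members and lists were chosen with earlier results of these data known. Alternatives changed the background correction, normalization, channel, filter, probe choice, tumors, slide, weights and threshold. Replicates are numbered in accession order. Spindle cell tumors were not analysed here. Some genes are not reported here.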

Additional observations from a re-analysis of the deposited data

Results flagged for a closer look

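In 112 checks for a tumor far from the others of its regimen, 13 found one, while chance gives about 1 in 20, and the checks share arrays. LFD replicate 8 was the highest of its group in Tpcn2 at 5.62 (next 2.82) and in Prlr at 6.36 (next 3.93). LFD replicate 3 was the highest in Mki67 at 1.28 (next 0.31) and the lowest in Trp53 at -2.25 (next 0.41) and Cdh5 at -6.17 (next -1.83). LFD replicate 4 was the highest in Arg1 at 1.15 (next -1.61) and in Mrc1 at 1.28 (next -0.55), so 1 tumor stood apart in both M2 macrophage markers. HFD-LFD replicate 2, the array with the fewest spots above background, was the highest in Ccl8 at 8.11 (next 6.89) and in Cd68 at 2.26 (next 0.92, n = 6 after 1 outlier spot) and the lowest in Prlr at -1.91 (next 1.51). HFD-LFD replicate 3 was the lowest in Bcl2 at -0.19 (next 0.45).

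Of the array values, the SD of log2 ratios was 1.32 in LFD replicate 1 (next 1.64), and HFD-LFD replicate 7 had 8.04% of its spots marked as outliers (next 1.0%).

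The early and late differences of Prkaca were 1.90 apart on the log2 scale (adjusted p = 0.0115, limma), and the 4 groups behind them lay on 4 slides.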

How the results depend on the processing

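No paired analysis was possible because replicate numbers follow accession order and tie no tumor of one regimen to a tumor of another. The 261 calls became 162 with loess on the processed signals, 2164 in the tumor channel alone, 433 from the authors' table (20006 genes), 155 in a fit of the 15 tumors alone, 574 with array weights, 88 without HFD-LFD replicate 6 and LFD replicate 2, 85 at an adjusted p under 0.05, and 769 without the 2 HFD tumors of another scan session (an alternative added after seeing the data). With slide as a random block they were 8, and with slides averaged 0, a fit of fewer values (785 genes at an unadjusted p under 0.05, limma). Higher calls were 29.1% of the total as reported, 48.4% in the tumor channel, 62.4% in the authors' table, 47.7% after normexp and loess, 40.1% after loess, 45.2% without the filter and 37.4% in the 15 tumors alone; without the 4 brightest arrays they were 45.2%. With 1 tumor left out the count ran from 65 (without HFD-LFD replicate 2) to 553 (without LFD replicate 1). It fell by over 1.5 times also without HFD-LFD replicate 6 or 7 or LFD replicate 2, 3, 4, 5, 6, 7 or 8, to 82 to 171.

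Early calls (24) became 62 after normexp and loess, 12 with median-centred arrays or the filter on spots above background, 141 in the authors' table, 523 with array weights and 49 without the 3 HFD tumors whose columns did not match, and 5 (without HFD-LFD replicate 6 or LFD replicate 2) to 219 (without HFD-LFD replicate 1) with 1 tumor left out, with 10, 11 and 15 without LFD replicate 4, LFD replicate 6 and HFD-LFD replicate 5. The late call (1) became 0 after normexp and loess, with median centring or without those 3 HFD tumors, 19 in the authors' table and 13 with weights, and 0 to 359 with 1 tumor left out (0 without HFD-LFD replicate 7 or LFD replicate 3, 5 or 7, and 8, 68 and 359 without HFD-LFD replicate 3, HFD-LFD replicate 4 and LFD replicate 1). The call of a difference between onsets became 0 after normexp and loess and in the authors' table, 6 with weights, and 1 to 6 with 1 tumor left out (6 without HFD-LFD replicate 1, 2 without LFD replicate 8). Except where slides, 1 tumor or the threshold changed by construction, the cause was not tested. H2-Eb1 turned to -0.31 in the tumor channel alone, the 1 reversal among 550 values of the 29 called named genes, 153 of which lost their call. Probes near background have only a coarse ratio, and with 7 and 8 tumors a difference of 1 was often missed.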

Other observations

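None of the gene lists below had a called member. Fatty acid oxidation genes were above 0 in 15 of 19, with a median of 0.22 and none called. DNA repair genes were above 0 in 2 of 16, with a median of -0.17, and T cell genes in 3 of 16, with a median of -0.26 (-0.90 in early and 0.11 in late tumors). Luminal genes had a median of -0.41, at -0.99 in early and 0.04 in late tumors, hormone receptor genes one of -0.18 (-0.88 early, 0.38 late) and genes of the EGF receptor family one of -0.37 (-0.81 early, 0.36 late). Ribosomal protein genes, respiratory chain genes and chromatin regulators had medians of -0.05, 0.02 and 0.07. The median over all genes was -0.06. Skeletal muscle and keratinocyte genes, from tissues next to the mammary gland, averaged from -5.16 to -4.17 and from -4.41 to -3.15 in HFD-LFD and from -4.96 to -2.70 and from -4.47 to -2.41 in LFD tumors, far below the reference. The skeletal muscle list had a median difference of -0.34 (0.36 early, -0.80 late).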
